A study of Fundulus heteroclitus with 8 samples.

Results

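The genes described here are those of the glutathione, thioredoxin and metallothionein systems in the testis of the mummichog (Fundulus heteroclitus), a small estuarine killifish. Members were the 68 non-control probes, of 7157 on the array, whose design name contained glutathione, metallothionein, thioredoxin, peroxiredoxin, glutaredoxin, superoxide dismutase, catalase, selenoprotein or nuclear factor erythroid 2 related factor. They carried 53 of the 3705 product names of the design. Testis RNA came from 4 adult control males, without hormone, and from 4 adult males exposed through the water to 5α-dihydrotestosterone at 50 µg/L over 21 days (DHT50). It was hybridised on single-colour Cy3 arrays, 1 array for each male. DHT is an androgen that aromatase does not convert to an estrogen. Per the labels the arrays are biological replicates from individuals, and the tank of each male and any carrier solvent are not given in the sources used here.

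Glutathione and thioredoxin are the main carriers of reducing power for thiols in animal cells. Peroxidases and peroxiredoxins use them to break down peroxides, transferases join glutathione to foreign and endogenous compounds, and metallothioneins hold zinc and copper on clusters of cysteines. Superoxide dismutases and catalase act before and beside them, and nuclear factor erythroid 2 related factor 2 (NRF2) is the transcription factor that drives many of these genes under oxidative stress. In the testis these systems protect sperm membranes rich in unsaturated lipids, and in mammals phospholipid hydroperoxide glutathione peroxidase also becomes a structural protein of sperm mitochondria.

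A level is the log2 processed signal of a probe minus the 75th percentile of its array, so that 0 is as bright as that percentile, and a change is the DHT50 mean minus the control mean on this scale. Levels of different probes are not set against each other. Of the 68 members, 61 stood well above background on 4 arrays or more and were tested, 55 of them on all 8 arrays. The other 6 tested members failed to stand well above background on DHT50 2 alone. That array was the dimmest, with a 75th percentile of 7.97 on the log2 scale, against 9.13 to 11.21 on the others, of which control 1 was the brightest. DHT50 2, 3 and 4, at 7.97, 9.13 and 9.50, were all dimmer than every control (9.99 to 11.21). DHT50 1, at 10.95, was not. Brightness thus went in part with exposure, and the design does not fully separate them. Slide row 1 held control 1 and DHT50 1, 2 and 3, and row 2 held the other 4 arrays. DEAD-box protein 4 (vasa), which marks germ cells, was well above background on all 8 arrays. Among markers of somatic testis cells, Steroidogenic acute regulatory protein was so on 6 arrays and Cytochrome P450 17A1 on 7. In whole tissue, fewer cells of a type and less RNA per cell cannot be told apart.

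No member passed the test: at an adjusted p under 0.05, limma called 0 of the 61, and 0 of the 5989 tested probes (0.00%), with a lowest adjusted p of 0.685 among members and 0.216 among all probes. At an unadjusted p under 0.05, 9 members were lower in DHT50 males and 0 higher (limma). Those 9 are 14.8% of the tested members, where 4.71% of all tested probes were past that threshold, 1.42% lower and 3.29% higher. The change was below 0 for 48 of the 61 members (78.7%), against 46.4% of all tested probes. The median change of the members was -0.49, and that of all probes was 0.06. Members of 1 direction were thus more frequent here than over the array, which is a description of these 8 arrays and not a test. With the brightest probe of each name after merging spellings of 1 name, 35 of 46 names were lower, 11 were higher, and the median change was -0.37. Of these names, 6 were lower at an unadjusted limma p under 0.05, beside 1.42% of all tested probes.

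**Figure D1:**
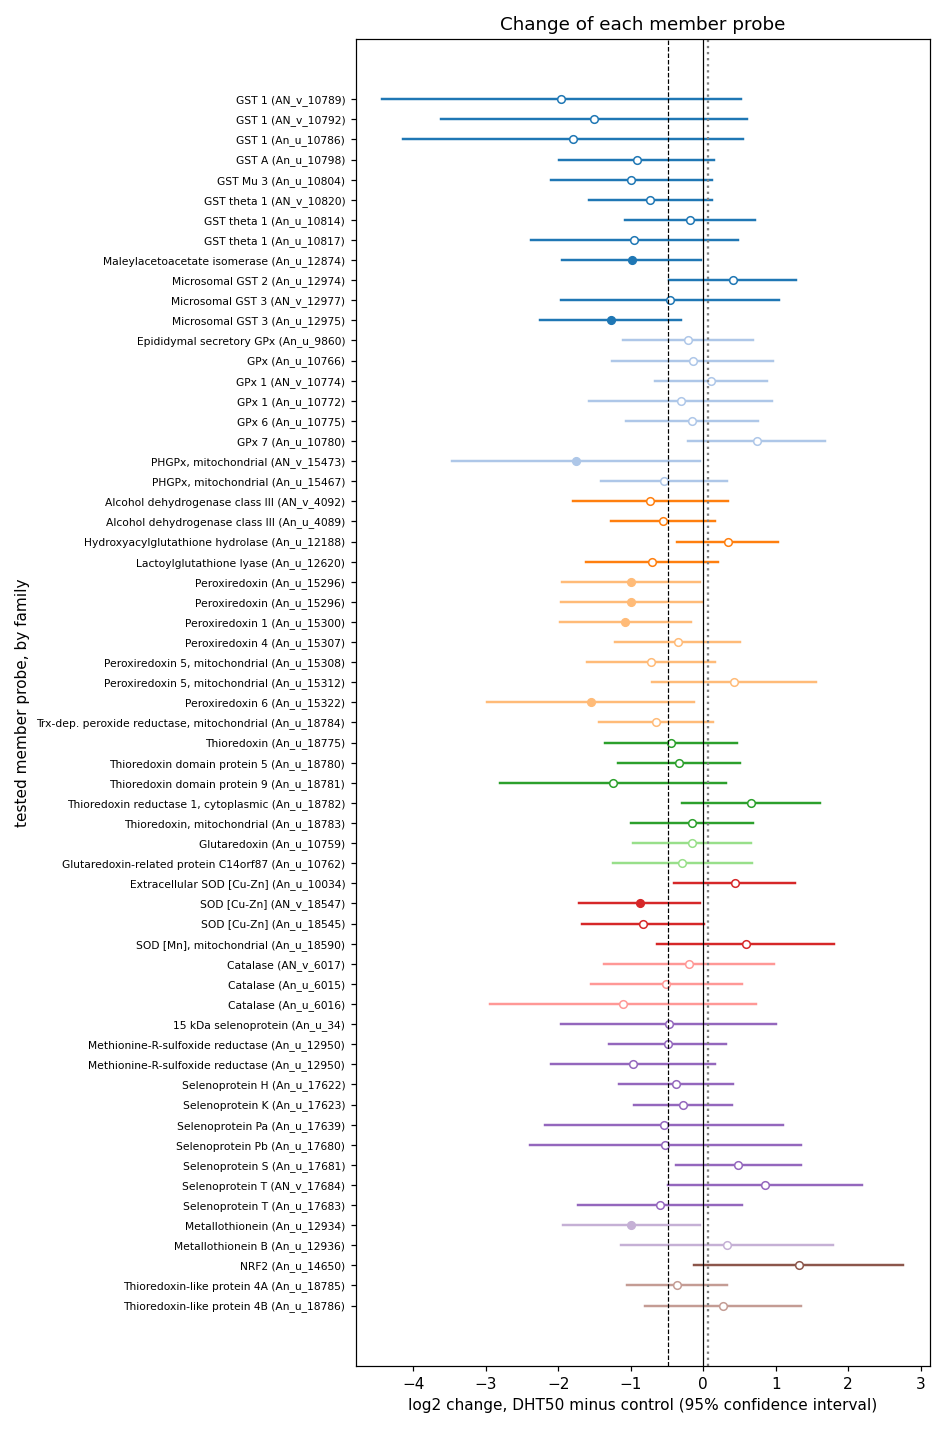
Log2 change of each of the 61 tested member probes, DHT50 minus control, with its 95% confidence interval (n = 4 males per group), coloured by family. Filled points have an unadjusted p under 0.05 in limma, the dashed line is the member median of -0.49, and the dotted line is the median of all probes, 0.06. Most points lie left of 0, and most intervals cross it.

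Full separation of the groups was seen in 3 members, all lower in DHT50 males, or 4.92%, against 0.952% of all tested probes. No member was higher in every DHT50 male than in every control, against 1.27% of all probes. In 26 members at least 3 DHT50 males lay below every control (42.6%, against 13.5% of all probes), and in 8 at least 3 lay above every control (13.1%, against 17.9%). Much of the spread sat in the brightest and the dimmest array. Control 1 had the highest level of the 8 arrays in 21 members (34.4%, against 11.1% of all probes), and DHT50 2 had the lowest in 29 (47.5%, against 24.8%). DHT50 1 was the highest of its own group in 31 members (50.8%, against 25.9%). DHT50 2, 3 and 4 were also dimmer than every control, and the part of brightness in these differences was not tested directly. Without control 1 and DHT50 2, 45 of the 61 members were below 0, beside 59.9% of all probes, with a median of -0.27 beside -0.10. In that fit 1 member had an unadjusted limma p under 0.05 and a lower level, beside 1.04% of all probes. With array brightness as a covariate 44 of the 61 members were below 0, beside 65.0% of all probes. The medians there were -0.20 and -0.13. At an unadjusted limma p under 0.05, 1 member was then lower, beside 0.751% of all probes.

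**Figure D2:**
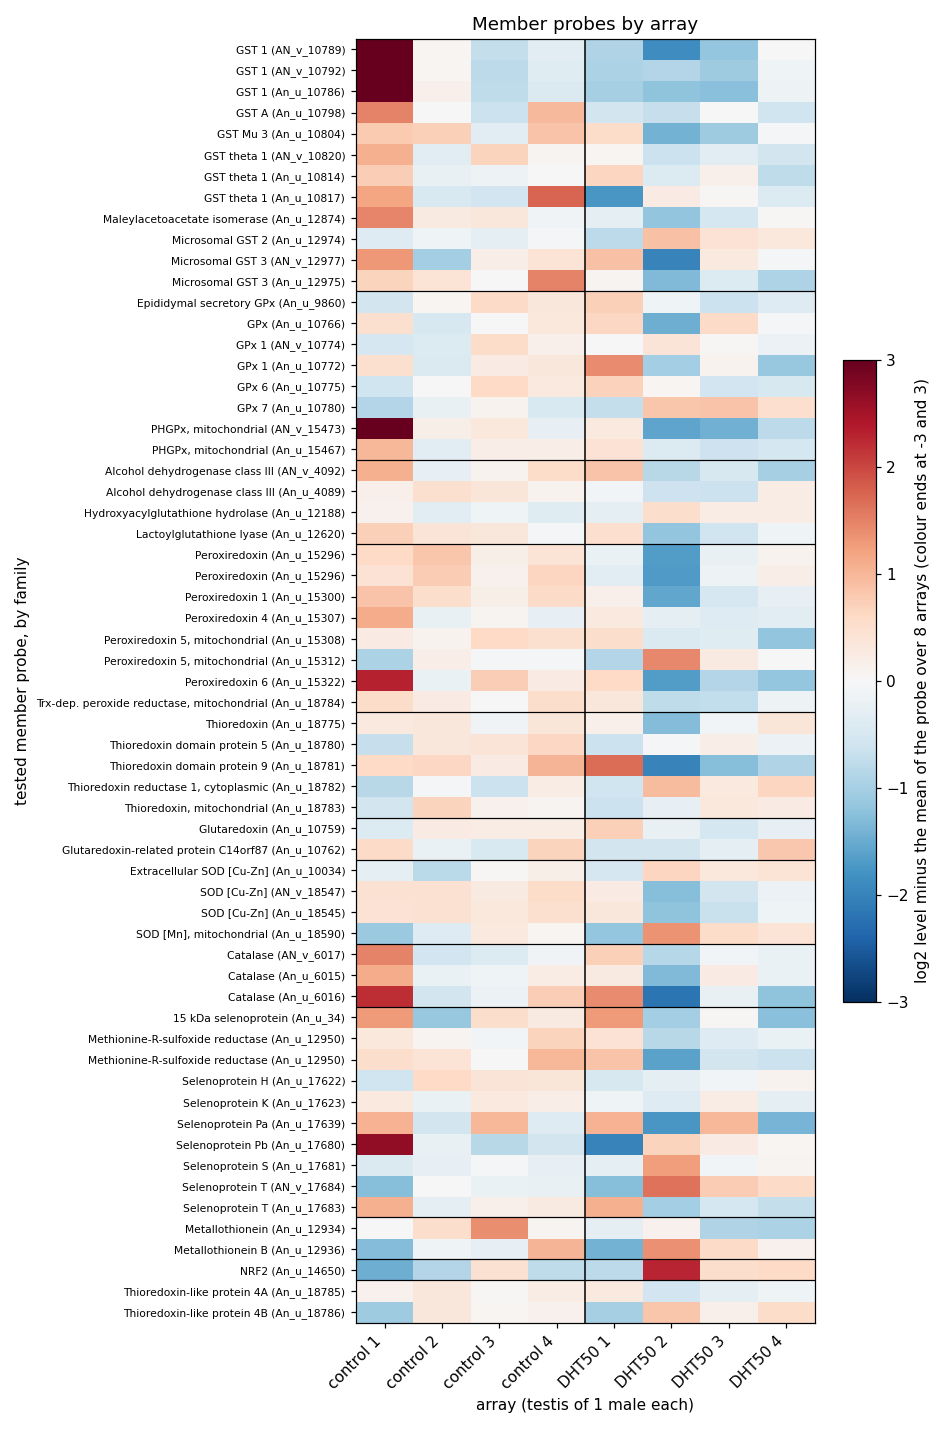
Level of each tested member probe on each array, minus the mean of that probe over the 8 arrays, on a log2 scale whose colour ends at -3 and 3. Families are set apart by horizontal lines and the groups by the vertical line. The darkest red cells are those of control 1 in the GST 1 probes and in PHGPx, and the column of DHT50 2 holds most of the darkest blue cells.

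Glutathione S-transferases (GST) join glutathione to electrophilic compounds. Of 15 probes 12 were tested, and 11 of these had a change below 0, with a median of -0.97, or -0.56 without control 1. Microsomal glutathione S-transferase 3 (An_u_12975), a membrane enzyme with transferase and peroxidase activity, had the smallest unadjusted p of all members. Its levels were -0.03, -0.27, -0.69 and 0.79 in controls 1 to 4 and -0.60, -2.02, -1.09 and -1.61 in DHT50 1 to 4. Only DHT50 1 reached into the control range, and control 3 was the lowest control. The change was -1.28 ± 0.44 (SE, n = 4 per group), or 2.43-fold lower, with an unadjusted limma p of 0.0155 and an exact permutation p of 0.0571. It was -0.95 with normexp background correction, -1.27 without control 1 and -1.05 without DHT50 2. A second probe of the same name (AN_v_12977) gave -0.46 ± 0.67 and 0.49 without control 1 and DHT50 2, so the probes of this name did not give 1 value.

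Maleylacetoacetate isomerase (An_u_12874), the zeta-class transferase of tyrosine breakdown, read 0.33, -0.89, -0.81 and -1.25 in the controls and -1.44, -2.33, -1.68 and -1.12 in DHT50 males. Control 1 was the highest array and DHT50 2 the lowest, and DHT50 4 lay inside the control range. Its change was -0.99 ± 0.43, or 1.98-fold lower (limma, unadjusted p = 0.0452; exact permutation p = 0.0571; n = 4 per group). Without control 1 it was -0.66, and without control 1 and DHT50 2 it was -0.43.

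Glutathione S-transferase 1, a cytosolic transferase, had 3 tested probes, and on each of them control 1 stood apart. Probe An_u_10786 read 2.54 in control 1, and -1.96, -2.87 and -2.54 in the other controls, beside -3.10, -3.32, -3.36 and -2.26 in DHT50 males. The other probes read 2.28 and 2.20 in control 1 and between -3.29 and -1.84 in the remaining controls. Changes of the 3 probes were -1.80 ± 1.05, -1.96 ± 1.11 and -1.50 ± 0.94 (SE, n = 4 per group). They were -0.55, -0.66 and -0.39 without control 1. Within slide row 1, where control 1 is the only control, they were -5.79, -6.17 and -5.06, with limma adjusted p of 0.0114, 0.0104 and 0.0211 that rest on that 1 array. Within slide row 2, where DHT50 4 is the only exposed male, they were 0.20, 0.31 and 0.24. On the other 7 arrays the 3 probes lay between -4.45 and -1.84.

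Control 1 also stood apart in a list of liver and plasma protein markers. Its hemopexin level (An_u_11927) was 4.90, against -5.22 to -0.91 on the other arrays. The median deviation of the 60 tested list members from their probe means was 2.80 in control 1 and -1.33 to 0.85 on the other arrays. Of those 60, 42 were highest in control 1 and 45 were lower in DHT50 males. The log2 of the summed signal of the whole list was 4.59 to 9.79 in controls and 4.53 to 6.40 in DHT50 males. The vertebrate liver expresses many transferases at high levels, and the part of this list in the transferase levels was not tested. Control 1 was also the highest array in members of other families. Among them were the 3 catalase probes, mitochondrial phospholipid hydroperoxide glutathione peroxidase (AN_v_15473) and Peroxiredoxin 6. The part of the list in their levels was not tested either.

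GST A (An_u_10798), of the alpha class, had a change of -0.92 ± 0.48, or -0.57 without control 1, its highest array. GST Mu 3 (An_u_10804) read 0.996, 0.93, -0.13 and 1.06 in the controls and 0.77, -1.20, -0.84 and 0.16 in DHT50 males. Control 3 lay among the exposed males, and the change was -0.99 ± 0.50. GST theta 1 had 3 probes with changes of -0.73 ± 0.38, -0.19 ± 0.40 and -0.95 ± 0.64. Microsomal glutathione S-transferase 2 (An_u_12974), which also makes leukotriene C4 in mammals, was the only transferase probe above 0. It read 0.16, 0.43, 0.29 and 0.51 in the controls and -0.24, 1.43, 0.98 and 0.87 in DHT50 males, with 3 exposed males above and DHT50 1 below every control. Its change was 0.41 ± 0.39. A class-mu, a class-sigma and a second Mu 3 probe were not tested, since they were well above background on 0 to 3 of the 8 arrays.

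**Figure D3:**
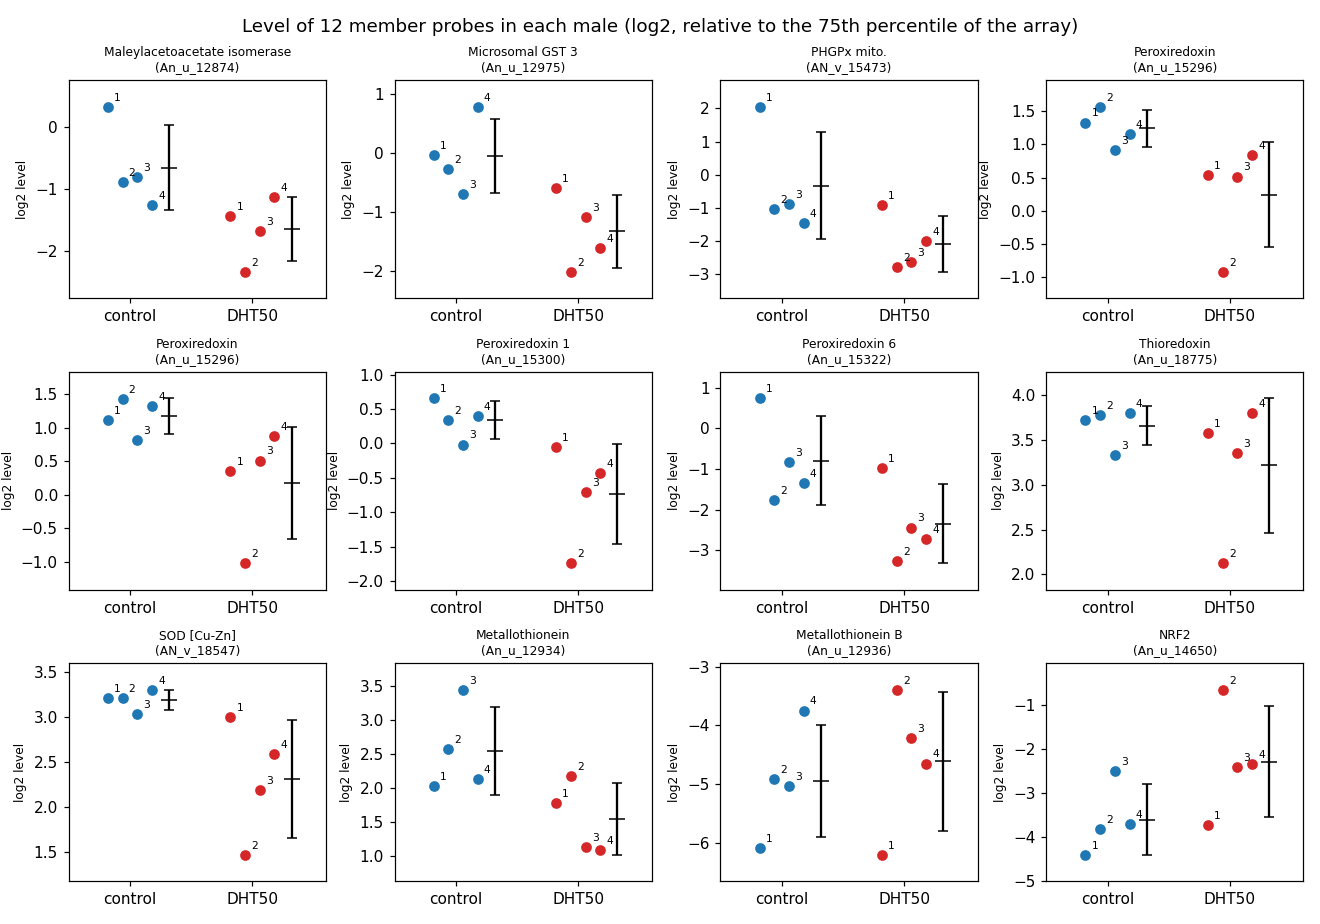
Levels of 12 member probes in each male (log2, relative to the 75th percentile of the array), with the replicate number beside each point and the group mean with its SD (n = 4) as a bar. They are the 9 probes with an unadjusted limma p under 0.05, then Thioredoxin, Metallothionein B and NRF2. In the controls of PHGPx, Peroxiredoxin 6 and Maleylacetoacetate isomerase male 1 is well above the rest, and among the exposed males number 2 is the lowest in most panels.

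Glutathione peroxidases reduce peroxides with glutathione, and all 8 probes were tested. Changes were below 0 in 6 of them, with a median of -0.18, or -0.45 without DHT50 1 and -0.07 without DHT50 4. Mitochondrial phospholipid hydroperoxide glutathione peroxidase (PHGPx, AN_v_15473), which reduces lipid peroxides within membranes, had the lowest change of this family. It read 2.05, -1.03, -0.90 and -1.47 in the controls and -0.92, -2.80, -2.65 and -2.003 in DHT50 males. Control 1 stood far above the other controls, and DHT50 1 lay among those other controls. The change was -1.76 ± 0.77, or 3.38-fold lower (limma, unadjusted p = 0.0457; exact permutation p = 0.0857; n = 4 per group). Without control 1 it was -0.96, and without control 1 and DHT50 2 it was -0.73. The other probe of this name (An_u_15467) gave -0.54 ± 0.39.

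The peroxidase listed without a number (An_u_10766) had a change of -0.15 ± 0.50. It read 2.52, 1.56, 2.02 and 2.37 in the controls and 2.67, 0.58, 2.63 and 2.01 in DHT50 males. DHT50 2 was the lowest array, DHT50 1 and 3 were the highest, and without that array the change was 0.32. Glutathione peroxidase 7, an enzyme of the endoplasmic reticulum, read -1.74, -1.10, -0.77 and -1.33 in the controls and -1.58, -0.04, -0.01 and -0.37 in DHT50 males. Here 3 exposed males were above every control, and the change was 0.73 ± 0.42 (limma, unadjusted p = 0.115; n = 4 per group). That change was 0.23 with array brightness as a covariate and 0.41 without control 1 and DHT50 2. Glutathione peroxidase 1, the cytosolic form, had probes at -0.31 ± 0.56 and 0.11 ± 0.34. Glutathione peroxidase 6 was at -0.15 ± 0.40 and Epididymal secretory glutathione peroxidase at -0.21 ± 0.40.

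Enzymes that use glutathione as a cofactor gave 4 tested probes, 3 of them below 0. Alcohol dehydrogenase class III, which oxidises the adduct of formaldehyde and glutathione, was at -0.55 ± 0.32 (An_u_4089) and -0.73 ± 0.48 (AN_v_4092). On the first probe levels were 3.71, 4.04, 3.93 and 3.67 in the controls and 3.48, 2.95, 2.92 and 3.79 in DHT50 males, and only DHT50 4 lay inside the control range. On the other probe they were -0.68, -1.99, -1.64 and -1.18 against -0.89, -2.57, -2.22 and -2.73, and DHT50 1 lay inside it. Lactoylglutathione lyase (glyoxalase I), which clears methylglyoxal, read 0.77, 0.45, 0.39 and 0.00 in the controls and 0.55, -1.13, -0.56 and -0.07 in DHT50 males. There 3 exposed males were below every control, and the change was -0.70 ± 0.41. Hydroxyacylglutathione hydrolase (glyoxalase II), the next enzyme of that route, read -3.41, -3.86, -3.67 and -3.90 against -3.84, -3.01, -3.32 and -3.32. In it 3 exposed males were above every control, the change was 0.34 ± 0.31, and it turned to -0.04 with normexp background correction.

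Peroxiredoxins reduce peroxides with electrons from thioredoxin, or from glutathione in the case of peroxiredoxin 6. All 8 probes were tested, 7 had a change below 0, and the median was -0.86, beside 0.06 for all probes on the array. The 8 changes were all below 0 without control 1 and DHT50 2, where their median was -0.60, beside -0.10 and 59.9% below 0 for all probes. In that fit Peroxiredoxin 4 was only at -0.01. A Peroxiredoxin 5 probe (An_u_15312) turned there from 0.42 to -0.23. The family held 4 of the 9 members with an unadjusted limma p under 0.05, a pair of them on 1 sequence. Over the array, 1.42% of the tested probes were lower at that threshold.

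Peroxiredoxin 1 (An_u_15300), the abundant cytosolic form, read 0.66, 0.34, -0.02 and 0.39 in the controls and -0.05, -1.74, -0.70 and -0.43 in DHT50 males. The groups did not overlap, though control 3 and DHT50 1 were 0.03 apart. The change was -1.07 ± 0.41, or 2.10-fold lower (limma, unadjusted p = 0.0251 and adjusted p = 0.685; exact permutation p = 0.0286, the smallest that 70 assignments allow; n = 4 per group). It was -0.83 with normexp and -0.63 without control 1 and DHT50 2.

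The product named Peroxiredoxin had a pair of probes on 1 sequence (An_u_15296). On the first, levels were 1.33, 1.57, 0.92 and 1.15 in the controls and 0.54, -0.92, 0.52 and 0.84 in DHT50 males, with no overlap. On the second, they were 1.12, 1.43, 0.81 and 1.33 in the controls and 0.36, -1.02, 0.51 and 0.87 in DHT50 males, where DHT50 4 passed control 3. DHT50 2 was the lowest array on both probes. Changes were -0.999 ± 0.42 and -0.99 ± 0.43, or 1.999-fold and 1.99-fold lower (limma, unadjusted p = 0.0408 and 0.0464; exact permutation p = 0.0286 and 0.0571; n = 4 per group). Without DHT50 2 they were -0.61 and -0.59.

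Peroxiredoxin 6 (An_u_15322), which also has phospholipase activity, read 0.75, -1.77, -0.83 and -1.34 in the controls and -0.97, -3.26, -2.44 and -2.72 in DHT50 males. Control 1 was above the other controls and DHT50 1 above the other exposed males, and DHT50 1 lay inside the control range. Its change was -1.55 ± 0.64, or 2.93-fold lower (limma, unadjusted p = 0.0360; exact permutation p = 0.0857; n = 4 per group). Values were -1.04 without control 1, -1.25 without DHT50 2 and -2.19 when slide row was a block in the fit.

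Mitochondrial thioredoxin-dependent peroxide reductase (peroxiredoxin 3) had a change of -0.66 ± 0.35. It read 0.95, 0.65, 0.38 and 0.92 in the controls and 0.73, -0.35, -0.35 and 0.24 in DHT50 males, with 3 exposed males below every control. Peroxiredoxin 4, which acts in the endoplasmic reticulum, was at -0.35 ± 0.39, or -0.04 without control 1. Peroxiredoxin 5, found in mitochondria and peroxisomes, had probes of opposite sign, at -0.72 ± 0.39 (An_u_15308) and 0.42 ± 0.50 (An_u_15312). Among the 12 member names with several tested probes, 3 had probes of opposite sign, and the median gap between the lowest and highest probe of a name was 0.62.

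Thioredoxin and its relatives move electrons between protein thiols. Of 6 probes 5 were tested, 4 of them below 0, and 0 had an unadjusted limma p under 0.05. The median was -0.34, or -0.10 without DHT50 2 and -0.06 when slide row was a block in the fit. Thioredoxin (An_u_18775) read 3.72, 3.77, 3.33 and 3.80 in the controls and 3.58, 2.12, 3.35 and 3.80 in DHT50 males. DHT50 2 alone was below the controls, and the change of -0.44 ± 0.41 was -0.08 without that array. Thioredoxin reductase 1, the selenoenzyme that recharges thioredoxin, read -2.80, -2.02, -2.61 and -1.75 in the controls and -2.56, -1.01, -1.67 and -1.31 in DHT50 males. Its change was 0.66 ± 0.42 (limma, unadjusted p = 0.151; n = 4 per group), with 3 exposed males above every control. That change was 0.17 with array brightness as a covariate and 0.28 without control 1 and DHT50 2.

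Thioredoxin domain containing protein 9 (An_u_18781), which binds the cytosolic chaperonin, read -0.17, -0.16, -0.53 and 0.24 in the controls and 0.90, -2.78, -2.05 and -1.69 in DHT50 males. The exposed males lay on both sides of the controls, with DHT50 1 above and the other 3 below every control. The change was -1.25 ± 0.70 (limma, unadjusted p = 0.104; n = 4 per group). Thioredoxin domain containing protein 5, a disulfide isomerase of the endoplasmic reticulum, was at -0.34 ± 0.38 and mitochondrial thioredoxin at -0.16 ± 0.38. Thioredoxin domain containing protein 4 was well above background on 2 arrays and was not tested.

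Many glutaredoxins remove glutathione from proteins, though not all are known for it, and both probes were tested. Glutaredoxin read -0.48, 0.19, 0.16 and 0.17 in the controls and 0.65, -0.28, -0.61 and -0.32 in DHT50 males. Control 1 was below the other controls and DHT50 1 above every array, and the change was -0.15 ± 0.36. The glutaredoxin-related protein C14orf87 homolog read -2.43, -3.20, -3.45 and -2.34 in the controls and -3.55, -3.56, -3.26 and -2.20 in DHT50 males. The groups overlapped, with a change of -0.29 ± 0.43.

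Superoxide dismutases turn superoxide into hydrogen peroxide, and 4 of 6 probes were tested. Cytosolic Superoxide dismutase [Cu-Zn] (AN_v_18547) read 3.21, 3.21, 3.03 and 3.30 in the controls and 3.003, 1.47, 2.19 and 2.59 in DHT50 males. The controls were close together (SD 0.11), the exposed males were not (SD 0.65), and the groups were apart by 0.03 between control 3 and DHT50 1. The change was -0.88 ± 0.37, or 1.84-fold lower (limma, unadjusted p = 0.0408; exact permutation p = 0.0286; n = 4 per group). It was -0.76 with normexp and -0.59 without control 1 and DHT50 2. Its second probe (An_u_18545) read 3.63, 3.65, 3.51 and 3.68 in the controls and 3.53, 1.98, 2.54 and 3.08 in DHT50 males. There DHT50 1 passed control 3, and the change was -0.83 ± 0.38 (limma, unadjusted p = 0.0518; exact permutation p = 0.0571; n = 4 per group).

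Mitochondrial Superoxide dismutase [Mn] (An_u_18590) and Extracellular superoxide dismutase [Cu-Zn] (An_u_10034) had changes above 0. The mitochondrial enzyme read -5.12, -4.38, -3.71 and -3.94 in the controls and -5.15, -2.65, -3.44 and -3.59 in DHT50 males, a change of 0.58 ± 0.55. The extracellular enzyme read -4.26, -4.81, -3.96 and -3.83 against -4.50, -3.36, -3.68 and -3.59, a change of 0.43 ± 0.37. On both probes 3 exposed males lay above every control and DHT50 1 did not. The lowest level of any probe well above background was -6.72, -3.75, -4.86 and -5.38 on DHT50 1 to 4. In the controls that floor was -6.93 to -5.21. Its part in the order of the males on these dim probes was not tested. Each of these names had a second probe that was well above background on 2 or 3 arrays and was not tested.

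Catalase, which breaks down hydrogen peroxide in peroxisomes, had 3 tested probes, all with changes below 0. Their values were -0.20 ± 0.52 (AN_v_6017), -0.51 ± 0.46 (An_u_6015) and -1.11 ± 0.82 (An_u_6016). The third read 0.69, -2.07, -1.69 and -0.78 in the controls and -0.11, -3.70, -1.75 and -2.73 in DHT50 males. The first read 1.72, -0.34, -0.19 and 0.11 against 0.95, -0.62, 0.15 and 0.02, and the middle probe 3.44, 2.12, 2.20 and 2.55 against 2.59, 0.99, 2.58 and 2.13. On all 3 probes control 1 was the highest array and DHT50 2 the lowest. Without both arrays the changes were 0.51, 0.14 and -0.01.

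Selenoproteins carry selenocysteine, and 10 probes were tested, 8 of them below 0, with 0 at an unadjusted limma p under 0.05. The median was -0.48, or -0.26 without control 1, and the same value without DHT50 2. Methionine-R-sulfoxide reductase (An_u_12950), which repairs oxidised methionine, had the smallest unadjusted p. Its pair of probes gave -0.49 ± 0.36 and -0.97 ± 0.51. On the latter, levels were -1.82, -1.94, -2.34 and -1.34 in the controls and -1.49, -3.95, -2.89 and -2.99 in DHT50 males, where 3 exposed males were below every control and DHT50 2 was not well above background.

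Selenoprotein Pa, a form of the plasma protein that carries selenium from the liver, read 3.25, 1.66, 3.21 and 1.84 in the controls and 3.27, 0.48, 3.22 and 0.82 in DHT50 males. Each group held a pair of males near 3.2, controls 1 and 3 and DHT50 1 and 3, and a lower pair, and the change was -0.54 ± 0.73. The other plasma form, Selenoprotein Pb, read 1.03, -1.86, -2.47 and -2.19 against -3.64, -0.96, -1.40 and -1.59. Control 1 was highest and DHT50 1 lowest there, and the change was -0.52 ± 0.84 and turned to 0.28 without control 1.

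Selenoprotein T, a thioredoxin-like protein of the endoplasmic reticulum, had probes at -0.60 ± 0.50 (An_u_17683) and 0.85 ± 0.60 (AN_v_17684), the widest gap between probes of 1 member name at 1.45. Selenoprotein S, of the pathway that removes misfolded proteins from that compartment, was at 0.49 ± 0.38. Selenoprotein K, of the same pathway, was at -0.28 ± 0.30, and the 15 kDa selenoprotein, which binds a folding sensor there, at -0.48 ± 0.66. Selenoprotein H, a nuclear protein, was at -0.38 ± 0.35. Without control 1 and DHT50 2 the median of the 10 probes was -0.07, and 6 of them were below 0, beside -0.10 and 59.9% for all probes.

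Metallothioneins were measured by a probe each for Metallothionein and Metallothionein B. Metallothionein (An_u_12934) read 2.03, 2.57, 3.44 and 2.13 in the controls and 1.79, 2.18, 1.14 and 1.09 in DHT50 males. DHT50 2 lay inside the control range and the other 3 exposed males were below every control. The change was -0.995 ± 0.42, or 1.99-fold lower (limma, unadjusted p = 0.0409; exact permutation p = 0.0857; n = 4 per group). It was larger without the brightest or the dimmest array, at -1.17 without control 1, -1.21 without DHT50 2 and -1.38 without both. With 1 array left out at a time it ranged from -1.21 to -0.70. Control 3, at 3.44, was the highest control. It was -0.91 with normexp and -1.17 with array brightness as a covariate. Within slide row 1 it was -0.33 and within row 2 it was -1.63.

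Metallothionein B (An_u_12936) read -6.07, -4.91, -5.03 and -3.75 in the controls and -6.19, -3.39, -4.21 and -4.65 in DHT50 males. The groups overlapped from end to end, and the change was 0.33 ± 0.65, or -0.45 without control 1 and DHT50 2. The difference between the changes of these probes was not tested.

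NRF2 (An_u_14650) had the highest change of the members, 1.32 ± 0.65, or 2.49-fold (limma, unadjusted p = 0.0694 and adjusted p = 0.685; exact permutation p = 0.0857; n = 4 per group). Its levels were -4.41, -3.82, -2.50 and -3.71 in the controls and -3.73, -0.66, -2.43 and -2.36 in DHT50 males. DHT50 2 was the highest array, and DHT50 3 and 4 lay just above control 3, the highest control. The change was 0.51 with normexp background correction, 0.77 without DHT50 2 and 0.51 without control 1 and DHT50 2. It was the only member with a change past 2-fold upward (1.64% of members, against 5.96% of all probes), while 9 were past 2-fold downward (14.8%, against 5.53%).

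Changes followed brightness over the whole array. With the tested probes in 4 bins of equal size by mean level, the median change was 0.26 in the dimmest bin and -0.09 in the brightest. Members in the same bins had medians of 0.33 (6 probes) and -0.55 (14 probes), and in the bins between them -0.63 (14 probes, beside 0.06 for all) and -0.46 (27 probes, beside -0.03). Metallothionein B and the Mn and extracellular dismutases, whose changes were above 0, were in the dimmest bin, and the part of brightness in their values was not tested.

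**Figure D4:**
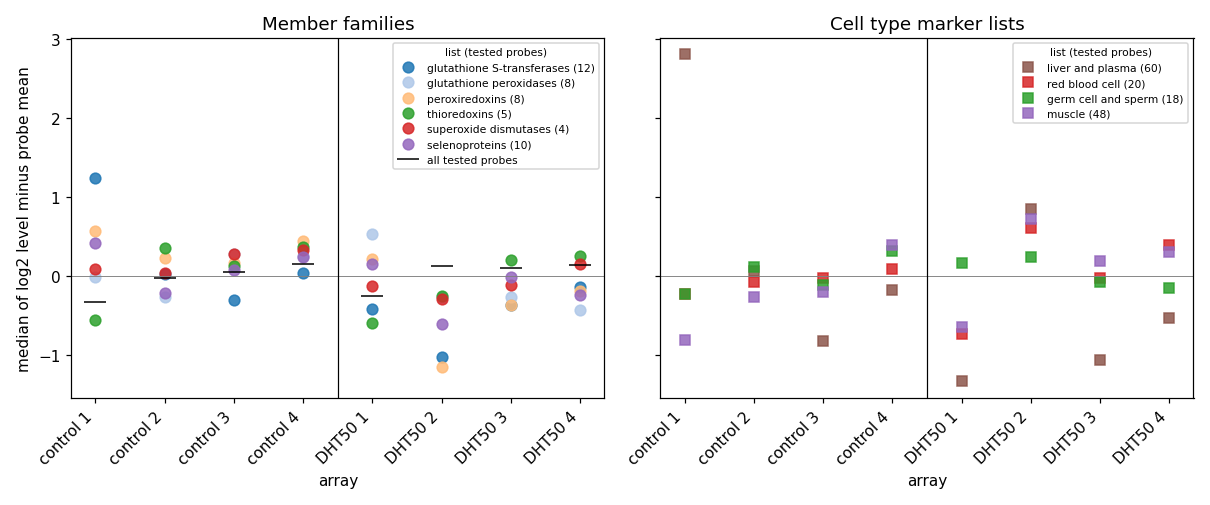
Median, over the tested probes of a list, of the log2 level minus the probe mean on each array, for 6 member families (left, with all tested probes as black bars) and for 4 cell type marker lists (right). GST and liver and plasma markers are highest in control 1, at 1.24 and 2.80, and GST and peroxiredoxins are lowest in DHT50 2.

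Between arrays, the families did not move as 1 block. The median deviation of the GST probes was 1.24 in control 1 and -1.03 in DHT50 2, and between -0.42 and 0.04 on the other 6 arrays. That of the peroxiredoxins was 0.57, 0.23, 0.16 and 0.44 in the controls and 0.22, -1.15, -0.37 and -0.19 in DHT50 males. In this family the 4 controls were above 0 and 3 of the 4 exposed males below it. That of the glutathione peroxidases was highest in DHT50 1, at 0.53, and that of the thioredoxins lowest in DHT50 1, at -0.59. Marker lists other than liver and plasma had median changes of 0.10 for red blood cells (20 tested), -0.05 for germ cells and sperm (18), 0.04 for testis somatic cells (7), 0.31 for muscle (48) and 0.70 for leukocytes (18). These lists were drawn by words of the product name. That of germ cells and sperm also took up products that do not mark germ cells. Among them were DEAD-box protein 47, cytosolic dynein heavy chain and Glucose-6-phosphate isomerase, so its median is not a measure of germ cell RNA. Other lists took up such products too. Plasminogen activator inhibitor 1 RNA-binding protein was in that of liver and plasma. Nonspecific 5-aminolevulinate synthase was in that of red blood cells, and the testis isozyme of creatine kinase in that of muscle. Their medians and counts have the same limit. DEAD-box protein 4 read 0.03, -0.82, -1.17 and -0.24 in the controls and -0.02, -2.08, -2.37 and -1.59 in DHT50 males, a change of -0.96. As in many members, 3 exposed males were below every control and DHT50 1 was not. The arrays of those 3 males were also dimmer than every control. Other products of the germ cell and sperm list did not all follow DEAD-box protein 4. Sperm-associated antigen 8 was at 0.54 and spermatid perinuclear RNA-binding protein at 0.41. Motile sperm domain containing protein 1 was at 0.16 and -0.01. Of the 18 tested in that list, 10 were lower in DHT50 males. The part of germ cell RNA and that of brightness in the member values were not tested.

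**Figure D5:**
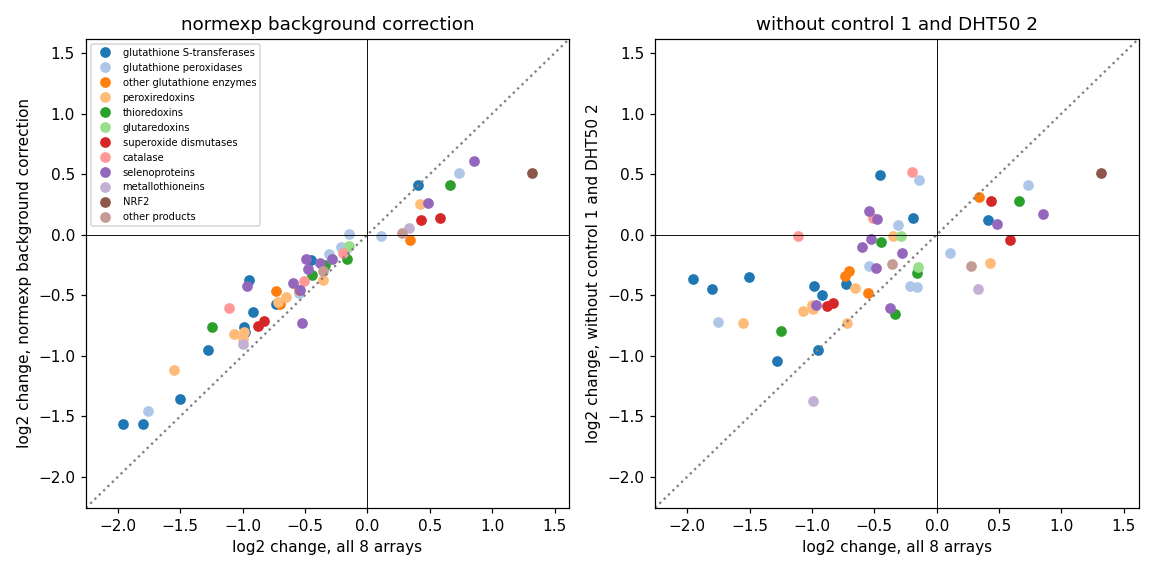
Log2 change of each tested member with all 8 arrays (horizontal) against its change with normexp background correction (left) and without control 1 and DHT50 2 (right), coloured by family, with the line of equal values dotted. With normexp nearly all members keep their sign and move towards 0, and without the brightest and dimmest arrays the GST 1, PHGPx and catalase points move up while Metallothionein moves down.

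Genes that feed the glutathione and thioredoxin systems, or are induced beside them, were taken from a list of 31 name words, of which 17 matched 116 probes. Of 109 tested, 66 had a change below 0 and 43 above, where 46.4% of all tested probes were below 0. Their median was -0.16, beside 0.06 for all probes, and limma called 0 at an adjusted p under 0.05. At an unadjusted limma p under 0.05, 1 was lower and 0 higher, beside 1.42% and 3.29% of all tested probes. The word for quinone oxidoreductases took up 65 probes of mitochondrial ubiquinone oxidoreductases, which are other enzymes. All were of NADH-ubiquinone oxidoreductase but 1, of Electron transfer flavoprotein-ubiquinone oxidoreductase. Without these 65 probes, 24 of 44 were below 0, with a median of -0.08. Those 44 still held products outside these systems, among them Protein-glutamine gamma-glutamyltransferases, Acyl carrier protein and Sulfide:quinone oxidoreductase. The 1 lower probe was Ferritin heavy chain, oocyte isoform (An_u_10193), an iron store. It read 2.08, 1.77, 1.84 and 1.76 in the controls and 1.47, 0.72, 0.99 and 1.003 in DHT50 males, with no overlap. Its change was -0.82 ± 0.30 (limma, unadjusted p = 0.0215 and adjusted p = 0.685; n = 4 per group), and it was -0.71 with normexp.

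None of the listed products that NRF2 is known to drive in mammals passed the test. The same held for all 5989 tested probes, so this does not set these products apart. Heme oxygenase, which degrades heme, had probes of opposite sign, at -0.31 ± 0.42 (An_u_11250) and 0.28 ± 0.58 (AN_v_11253). Ferritin, heavy subunit was at -0.16 ± 0.34. Among enzymes that supply NADPH for both systems, Glucose-6-phosphate 1-dehydrogenase was at -0.29 ± 0.48 and mitochondrial NADP-dependent malic enzyme at 0.39 ± 0.37. The brightest probe of 6-phosphogluconate dehydrogenase (AN_v_3526) was at 0.0015 ± 0.36. That of mitochondrial Isocitrate dehydrogenase [NADP] (AN_v_12476) was at 0.0040 ± 0.42. Transketolase and Transaldolase, which do not make NADPH themselves, were at -0.57 ± 0.36 and -0.05 ± 0.28. Epoxide hydrolase 1, another detoxifying enzyme, was at -0.51 ± 0.51. Selenium-binding protein 1 had a change of -1.003 ± 0.96, which was 0.08 without control 1.

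The search words also took up products outside these systems. Thioredoxin-like proteins 4A and 4B, which act in splicing, were at -0.36 ± 0.31 and 0.28 ± 0.48. Mitochondrial capsule selenoprotein, named for a mammalian sperm protein, was well above background on 0 of the 8 arrays and was not tested.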

How the data were processed

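RNA of 8 testis samples was measured on 1 slide of 8 single-colour Agilent arrays. The spot intensity used is the deposited processed signal of Feature Extraction 10.7.1.1, background-subtracted per the file headers, and the deposited median spot and background intensities served normexp (offset 50). The authors' deposited log2 table had a median of 7.47 on every array and a correlation of 0.995 to 1.00 with the scanner signal, and was an alternative. No spot was saturated (0 readings), and 28 of 114512 readings with an outlier flag were left out. Both spots of a probe were averaged after log2 and subtraction of the array's 75th percentile. Probes well above background on at least 4 arrays were tested (5989 of 7157) with limma 3.58.1 in R 4.3.3, two-sided, with Benjamini-Hochberg adjustment over all of them, and single probes also by an exact permutation test, two-sided, over 70 assignments. The number of arrays limits the precision: log2 changes had a median standard error of 0.45. On data simulated for this comparison over 5989 probes, the fit recovered 4.76% of 2-fold, 47.6% of 4-fold and 78.2% of 8-fold changes. In those data 200 probes were changed, and noise was independent between probes with the same spread in both groups. They held no outlying array and no difference in brightness or slide row, so the rates may not hold for the measured arrays.

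Members and lists were chosen with earlier results of these data known. Families followed the words of the product name, with peroxiredoxin 6 kept by its main name. Values on every array are given for members with an unadjusted p under 0.05, for the probe of each family with the smallest p, the brightest one, and families of at most 4 probes. Array values of 6 further members (GST 1, GST Mu 3, glutathione peroxidase 7, peroxiredoxin 3, thioredoxin reductase 1 and selenoprotein Pb) were added after their values were seen. The Mn and extracellular superoxide dismutases also fall outside this rule, and their array values are given too. Product names are those of the array design, often of the closest protein of another organism, so a family role may not hold for every probe. No probe sequence or coordinate was used. Males at 5 µg/L were not analysed here. Group and replicate came from the sample titles, and the labels describe the animals only as adult males, biological replicates and individuals. Alternatives were other background correction, scalings, filters, moderation, weights, blocks, single slide rows, a brightness covariate, left-out arrays and averaging over probes of 1 name.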

Additional observations from a re-analysis of the deposited data

Results flagged for a closer look

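Over the 61 tested members, 122 groups of 4 arrays were searched for an array far from the other 3, with a gap to the nearest one, over the range of the group, past Dixon's critical value for 4 values, and 8 (6.56%) held one. Chance gives about 1 in 20 such groups. In 6 of the 8 the array was control 1, in 2 it was control 3, and in 0 it was an exposed male.

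Control 1 was the highest control in PHGPx, mitochondrial (AN_v_15473), at 2.05 against -1.47 to -0.90. It was also the highest in the 3 probes of Glutathione S-transferase 1, at 2.28 (AN_v_10789), 2.54 (An_u_10786) and 2.20 (AN_v_10792). It was the lowest in Selenoprotein T (AN_v_17684), at -2.43 against -1.37 to -1.17, and in Glutaredoxin (An_u_10759), at -0.48 against 0.16 to 0.19. Control 3 was the lowest control in Glutathione S-transferase Mu 3 (An_u_10804), at -0.13 against 0.93 to 1.06, and in Thioredoxin (An_u_18775), at 3.33 against 3.72 to 3.80.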

How the results depend on the processing

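Over 22 alternatives and 61 members there were 1336 refits, in which a change turned its sign 79 times, and 31 members kept their sign throughout. Leaving out 1 array at a time, 39 members stayed below 0 and 10 above. The count of members with an unadjusted limma p under 0.05 and a lower level, 9 in all, was 2 with normexp (beside 19 of all probes), 20 with array weights (613), 5 in slide row 2 alone (152), 1 with array brightness as a covariate (45), 1 without control 1 and DHT50 2 (62), and 2 to 17 with 1 array left out (2 without control 1 or DHT50 3, beside 50 and 38 of all probes, 3 without DHT50 2, beside 43, 4 without control 2 or 4, beside 68 and 72, 5 without control 3 or DHT50 4, beside 137 and 91, and 17 without DHT50 1, beside 551). All 8 arrays gave 85 of all probes. Probes called at an adjusted p under 0.05 numbered 0 under every alternative but slide row 1 alone, where 106 were called, 3 of them members, the 3 Glutathione S-transferase 1 probes, with control 1 as the only control. Signal over background left 7 members untested. The cause of the shifts below was not tested.

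The member median of -0.49 was -0.94 in slide row 1 alone and -0.20 with brightness as a covariate. Family medians that moved by over 1.5 times were these. GST (-0.97) were at -0.60 with array weights, -1.63 in slide row 1 alone, -0.30 in row 2 alone, -0.64 with the brightness covariate, -0.42 without control 1 and DHT50 2, and -1.28 to -0.56 with 1 array left out. Glutathione peroxidases (-0.18) were at -0.10 with normexp, -0.46 with array weights, 0.11 in row 1 alone, -0.63 in row 2 alone, -0.09 with the covariate, and -0.45 to -0.07 with 1 array left out. Other glutathione enzymes (-0.63) were at -0.22 in row 2 alone, -0.18 with the covariate and -0.32 without both arrays. Peroxiredoxins (-0.86) were at -0.39 in row 2 alone and -0.54 with the covariate. Thioredoxins (-0.34) were at -0.06 with slide row as a block, 0.36 in row 1 alone, -0.03 in row 2 alone, and -0.46 to -0.10 with 1 array left out. Superoxide dismutases (-0.20) were at -0.11 with the row block, -0.05 in row 2 alone, -0.32 with the covariate, -0.30 without both arrays, 0.43 when the probes of a name were averaged, and -0.29 to -0.13 with 1 array left out. Selenoproteins (-0.48) were at -0.26 with normexp, -0.18 with array weights, -0.74 with the row block, -0.75 in row 1 alone, -0.11 with the covariate, -0.07 without both arrays, and -0.62 to -0.26 with 1 array left out.

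Single members turned as follows. With normexp, Hydroxyacylglutathione hydrolase was at -0.040, Glutathione peroxidase at 0.0024 and Glutathione peroxidase 1 (AN_v_10774) at -0.011. With array weights, Glutaredoxin-related protein C14orf87 homolog was at 0.047, Microsomal glutathione S-transferase 3 (AN_v_12977) at 0.16, Catalase (AN_v_6017) at 0.13, Glutathione peroxidase at 0.29, Selenoprotein Pb at 0.38 and Glutathione peroxidase 1 (AN_v_10774) at -0.014. With slide row as a block, Thioredoxin, mitochondrial was at 0.16.

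In slide row 1 alone, Thioredoxin, mitochondrial was at 0.36, Epididymal secretory glutathione peroxidase at 0.52, Glutaredoxin at 0.40, Thioredoxin domain containing protein 5 at 0.51, Selenoprotein H at 0.32 and Glutathione peroxidase 6 at 0.67. In slide row 2 alone, the Glutathione S-transferase 1 probes were at 0.31 (AN_v_10789), 0.20 (An_u_10786) and 0.24 (AN_v_10792), Glutaredoxin-related protein C14orf87 homolog at 0.79, Microsomal glutathione S-transferase 3 (AN_v_12977) at 0.064, Catalase (AN_v_6017) at 0.16, Metallothionein B at -0.083, Glutathione peroxidase at 0.029, Peroxiredoxin 5, mitochondrial (An_u_15312) at -0.024, Selenoprotein Pb at 0.59, Glutathione peroxidase 1 (AN_v_10774) at -0.28 and Thioredoxin at 0.16.

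With the brightness covariate, Selenoprotein T was at -0.068 (AN_v_17684) and 0.093 (An_u_17683), Microsomal glutathione S-transferase 3 (AN_v_12977) at 0.46, Microsomal glutathione S-transferase 2 at -0.062, Catalase at 0.47 (AN_v_6017), 0.10 (An_u_6016) and 0.036 (An_u_6015), Glutaredoxin at 0.011, Glutathione peroxidase 1 at 0.35 (An_u_10772) and -0.072 (AN_v_10774), Glutathione peroxidase at 0.42, Metallothionein B at -0.62, Superoxide dismutase [Mn], mitochondrial at -0.22, Peroxiredoxin 5, mitochondrial (An_u_15312) at -0.32, Glutathione S-transferase theta 1 (An_u_10814) at 0.19, Selenoprotein Pa at 0.24, Thioredoxin-like protein 4B at -0.36 and 15 kDa selenoprotein at 0.30. Without control 1 and DHT50 2, Microsomal glutathione S-transferase 3 (AN_v_12977) was at 0.49, Catalase at 0.51 (AN_v_6017) and 0.14 (An_u_6015), Glutathione peroxidase 1 at 0.083 (An_u_10772) and -0.15 (AN_v_10774), Glutathione peroxidase at 0.45, Metallothionein B at -0.45, Superoxide dismutase [Mn], mitochondrial at -0.045, Peroxiredoxin 5, mitochondrial (An_u_15312) at -0.23, Glutathione S-transferase theta 1 (An_u_10814) at 0.13, Selenoprotein Pa at 0.20, Thioredoxin-like protein 4B at -0.26 and 15 kDa selenoprotein at 0.13.

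With 1 array left out at a time, the members that turned ranged from -0.47 to 0.26 for Catalase (AN_v_6017), -0.41 to 0.0035 for Glutaredoxin, -0.43 to 0.036 for Glutathione S-transferase theta 1 (An_u_10814), -0.041 to 0.31 for Glutathione peroxidase 1 (AN_v_10774), -0.84 to 0.019 for Glutathione peroxidase 1 (An_u_10772), -0.41 to 0.017 for Glutathione peroxidase 6, -0.38 to 0.32 for Glutathione peroxidase, -0.076 to 0.86 for Metallothionein B, -0.87 to 0.13 for Microsomal glutathione S-transferase 3 (AN_v_12977), -0.89 to 0.28 for Selenoprotein Pb, -0.37 to 0.034 for Thioredoxin, mitochondrial and -0.033 to 0.65 for Thioredoxin-like protein 4B.

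The labels do not say whether the replicate numbers pair the males, and the values here do not settle it. Deviations of same-numbered arrays correlated at 0.20, 0.16, 0.38 and -0.11, beside -0.32 to 0.27 for arrays of different numbers. DHT50 1, 2 and 3 correlated best with the control of their own number, and DHT50 4 did not. With the replicate number as a block, 0 members were called by limma, and at an unadjusted p under 0.05 10 members were lower and 3 higher, beside 184 and 413 of all probes, where the fit without it gave 85 and 197. Counting Peroxiredoxin 6 with the glutathione peroxidases was chosen after seeing the data, and gave medians of -0.21 for the glutathione peroxidases and -0.72 for the peroxiredoxins.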
